A study of Homo sapiens with 9 samples.

Results

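The genes described here are 10 members of the AP-1 and immediate-early response: FOS, FOSB, FOSL1, FOSL2, JUN, JUNB, JUND, EGR1, ATF3 and IER3. They were taken by symbol from the count files, where all 10 of 10 were found among 24462 symbols. All 10 also passed the filter on low counts, among 13676 genes tested. The cells were U-373MG, an established human glioblastoma and astrocytoma line. There were 3 groups of 3 libraries: untreated control cells, cells given the peptide NnK-1 and cells given the peptide CBRV1-10493. Each peptide was used at 200 nM and left on the cells for 48 h. Both are synthetic, derive from jellyfish and belong to the ShK-like type, and 1 set of control libraries served both. No time in culture is recorded for the controls in the sources used here, and no vehicle is named.

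AP-1 is a dimer of basic leucine zipper proteins. Jun proteins pair with one another or with Fos proteins, whereas Fos proteins need a Jun or related partner to bind DNA. Immediate-early genes are transcribed from factors already present in the cell, after growth factor, stress, membrane or calcium signals, and FOS and EGR1 transcripts are known to be short-lived. The peptide ShK of sea anemones blocks the potassium channel Kv1.3, so the comparisons ask whether genes that answer membrane and calcium signals differed in level after 48 h with either peptide.

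Library totals lay between 11203094 and 13491075 counts, and levels are given as CPM, the share of a gene in its library's total scaled to 1e6 counts. The kit reads near the 3′ end of each transcript, so counts were not divided by gene length. A pair of libraries stood away from the rest in a principal component analysis of log2 CPM. NnK-1 replicate 2 scored 52.1 on the first component (the others -18.6 to 9.00), and CBRV1-10493 replicate 1 scored -44.9 on the second (the others -9.79 to 14.0). All 8 astrocyte and glioma markers listed were at 5 CPM or more, among them the astrocyte filament GFAP at a mean of 23.4 CPM, while the immune marker PTPRC had 1 read in all and the epithelial marker EPCAM had 0. In bulk RNA, a lower level in all cells and fewer cells that carry the transcript cannot be told apart.

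JUN dominated the members, and FOS and FOSB had few counts in every library. In control cells JUN stood at 614 ± 38.7 CPM (mean ± SD, n = 3), above 98.4% of the genes tested and at rank 213 of all symbols. JUND followed at 111 ± 6.12 CPM, FOSL2 at 81.2 ± 7.20 CPM, JUNB at 65.0 ± 4.08 CPM, FOSL1 at 41.7 ± 7.40 CPM and ATF3 at 32.8 ± 6.11 CPM. IER3 stood at 12.4 ± 1.42 CPM and EGR1 at 8.30 ± 0.937 CPM. FOS at 1.06 ± 0.772 CPM and FOSB at 0.946 ± 0.566 CPM came last. The control libraries of FOSL1 and ATF3 overlapped, as did those of FOS and FOSB, while all other neighbours in this order were apart. The JUN level was 5.53 times that of JUND and 580 times that of FOS by control means.

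**Figure D1:**
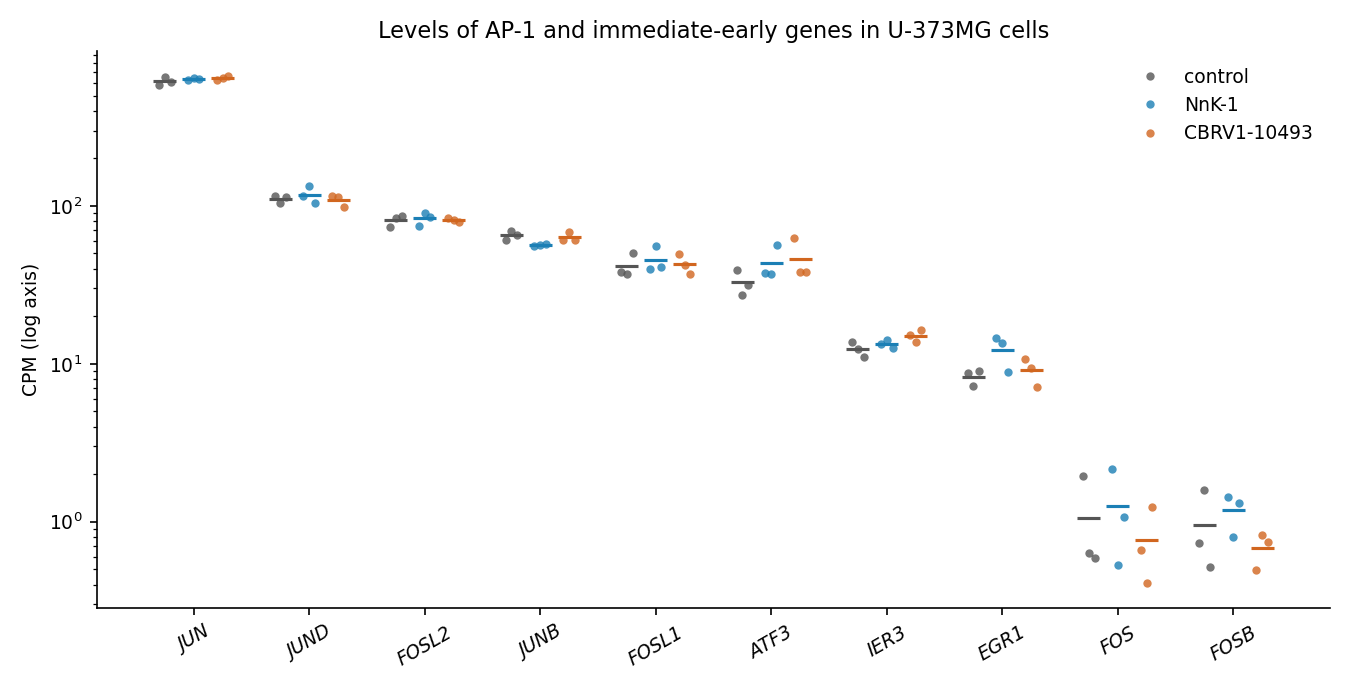
Level of each gene in CPM (log axis), ordered by the control mean; points are the 9 libraries, bars the group means, and colours the 3 groups. JUN lies between 579 and 664 CPM, and the group means of FOS and FOSB lie between 0.686 and 1.25 CPM.

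Promoter sequences from RefSeq (GRCh38.p14) were matched by symbol for 8 of the 10 genes, with 9 entries because ATF3 has 2 starts. FOSL1 and IER3 had no entry. The 4 stretches printed here belong to the most abundant Jun genes, JUN and JUND, and to the genes with the smallest p for a peptide, EGR1 and ATF3. Each is 100 bases of upstream sequence, 5′ to 3′ on the gene's strand, and capitals mark the motif found.
JUN: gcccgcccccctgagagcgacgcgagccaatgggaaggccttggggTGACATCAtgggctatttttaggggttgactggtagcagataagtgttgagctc
ATF3: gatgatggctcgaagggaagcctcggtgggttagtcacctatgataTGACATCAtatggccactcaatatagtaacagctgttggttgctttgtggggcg
JUND: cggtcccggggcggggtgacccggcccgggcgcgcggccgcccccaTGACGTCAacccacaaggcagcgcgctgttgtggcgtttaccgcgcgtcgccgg
EGR1: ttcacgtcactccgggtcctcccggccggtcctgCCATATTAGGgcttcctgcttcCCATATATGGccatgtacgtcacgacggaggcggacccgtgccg
The JUN stretch is chr1:58784061-58784160 (minus strand), the ATF3 stretch chr1:212565238-212565337 (plus), the JUND stretch chr19:18281769-18281868 (minus) and the EGR1 stretch chr5:138465340-138465439 (plus).

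JUN and ATF3 share the letters TGACATCA, the variant AP-1 element known from the JUN promoter, at -67 to -60 and at -123 to -116 from the start. Those letters occur in 2.61% of the 35116 promoter windows of 300 bases in the table. JUND holds the cyclic AMP response element TGACGTCA at -200 to -193, a motif of 1.85% of windows. EGR1 holds 2 CArG boxes, the site of serum response factor, at -105 to -96 and -83 to -74, and 1.29% of windows hold any. The AP-1 element TGAGTCA (4.95% of windows) was found in FOSL2 alone among the members, on the opposite strand at 5 to 11 after the start. The EGR motif GCGNGGGCG (9.43% of windows) was found in EGR1 and the letters TATAAA (11.5% of windows) in FOS, FOSB, JUNB and the other ATF3 entry. Both strands were searched, and no match overlapped another. A match describes letters in the window and not binding. The deposited counts do not separate the 2 ATF3 starts.

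None of the 10 genes passed the test in any of the 3 comparisons. The test was the quasi-likelihood test of edgeR with Benjamini-Hochberg adjustment over 13676 genes at 0.05, and DESeq2 also passed 0 members in each comparison. Over all genes 0% were called in each comparison, so the members were not set apart by this count. Without the adjustment 2 members had p below 0.05 for NnK-1 against control, where 7.32% of all genes did. For CBRV1-10493 against control it was 1 member against 2.89% of all genes, and for CBRV1-10493 against NnK-1 it was 0 members against 4.31%.

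For NnK-1 against control, 9 of 10 members had a log2 fold change above 0, where 50.6% of all genes did, and the median was 0.15 against 0.0033 for all genes. For CBRV1-10493 against control it was 6 of 10 where 50.8% of all genes did, with a median of 0.03. For CBRV1-10493 against NnK-1 it was 4 of 10 where 50.3% did, with a median of -0.08. The peptide comparisons with control share the same control libraries. Without the 2 libraries that stood away from the rest, FOSL1, FOSL2 and JUND turned below 0 for NnK-1.

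**Figure D2:**
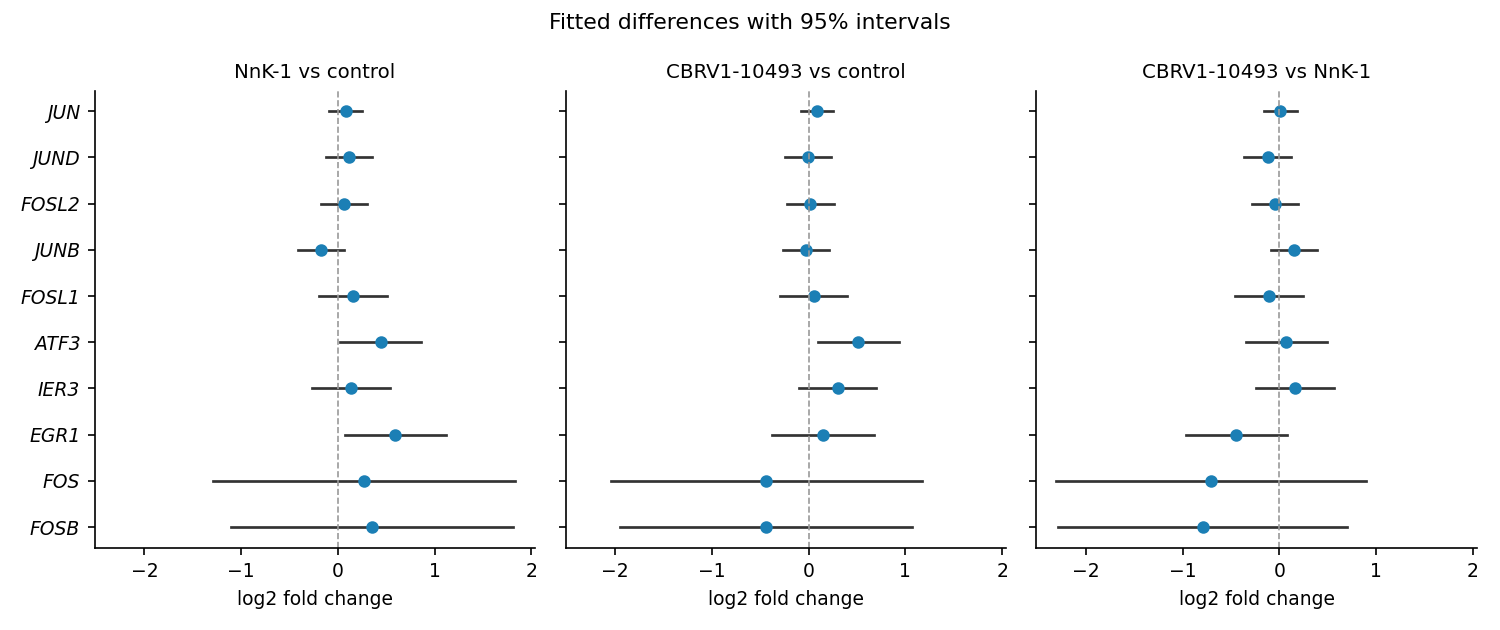
Fitted log2 fold change (points) with its 95% interval (lines) for each gene in the 3 comparisons; the dashed line is no difference. The intervals of JUN, JUND, FOSL2 and JUNB are the narrowest, those of FOS and FOSB span more than a 2-fold change either way in the comparisons with control, and the interval excludes 0 for EGR1 and ATF3 with NnK-1 and for ATF3 with CBRV1-10493, before any adjustment.

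Among the Jun genes, JUN, the main activating subunit, was the most even of all 10. The control libraries stood at 579, 655 and 609 CPM, the NnK-1 libraries at 628, 646 and 638 CPM and the CBRV1-10493 libraries at 631, 643 and 664 CPM. The groups overlapped in each comparison. The fitted change was 1.06-fold with NnK-1 (95% interval 0.939 to 1.19) and 1.06-fold with CBRV1-10493 (0.944 to 1.19). JUND, a Jun protein known for steady expression in resting cells, ranged from 98.8 to 134 CPM, with its highest value in NnK-1 replicate 2. Its log2 fold change was 0.11 (-0.13 to 0.35) with NnK-1 and -0.01 (-0.25 to 0.23) with CBRV1-10493.

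JUNB, a weaker activator that can oppose JUN, was the only member whose groups did not overlap. Control libraries stood at 60.8, 68.9 and 65.3 CPM, NnK-1 libraries at 55.5, 56.6 and 57.2 CPM and CBRV1-10493 libraries at 60.4, 68.5 and 60.7 CPM. Each NnK-1 library lay below the 6 others. In NnK-1 against control, where 1 member lay lower and 0 higher without overlap, 13% of all genes did not overlap (5.08% higher and 7.92% lower). In CBRV1-10493 against NnK-1, where 1 member lay higher and 0 lower, 8.88% did not (4.71% higher and 4.17% lower). In CBRV1-10493 against control 0 members were free of overlap, where 8.88% of all genes were (3.91% higher and 4.96% lower). The log2 fold change was -0.18 with NnK-1 (interval -0.41 to 0.06, adjusted p = 0.760 by edgeR), -0.03 with CBRV1-10493 (-0.26 to 0.21), and 0.15 between CBRV1-10493 and NnK-1 (-0.09 to 0.39).

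The Fos genes with substantial counts were FOSL2 and FOSL1, which encode Fra-2 and Fra-1, Fos proteins known to lack the strong activation domain of FOS. FOSL2 ranged from 73.1 to 90.6 CPM over the 9 libraries, with log2 fold changes of 0.06 (-0.18 to 0.31) for NnK-1 and 0.02 (-0.22 to 0.26) for CBRV1-10493. FOSL1 stood at 38.0, 36.9 and 50.3 CPM in control libraries, at 39.8, 56.0 and 41.2 CPM with NnK-1 and at 49.5, 42.1 and 36.9 CPM with CBRV1-10493. Each group held 1 high library, NnK-1 replicate 2 and CBRV1-10493 replicate 1 among them, and the groups overlapped. The log2 fold change of FOSL1 was 0.16 with NnK-1 (-0.19 to 0.51, and -0.033 without NnK-1 replicate 2) and 0.05 with CBRV1-10493 (-0.30 to 0.40, and -0.072 without CBRV1-10493 replicate 1).

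FOS, the founding Fos gene, had 24, 8 and 8 counts in control libraries, 27, 6 and 13 with NnK-1 and 8, 5 and 15 with CBRV1-10493. FOSB, its close relative, had 9, 20 and 7 counts in control libraries, 18, 9 and 16 with NnK-1 and 6, 10 and 9 with CBRV1-10493. Neither gene set a group apart, and the libraries highest for FOS were replicate 1 of control and of NnK-1. Over the 9 libraries the coefficient of variation of FOS was 62.1%, where counting error alone at its mean count gives 28.1%, and that of FOSB was 42.9% against 29.4%. The interval of the NnK-1 change ran from 0.410-fold to 3.56-fold for FOS and from 0.465-fold to 3.51-fold for FOSB, so these intervals include 2-fold changes. Without NnK-1 replicate 1 the log2 fold change of FOS was -0.35 in place of 0.27.

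**Figure D3:**
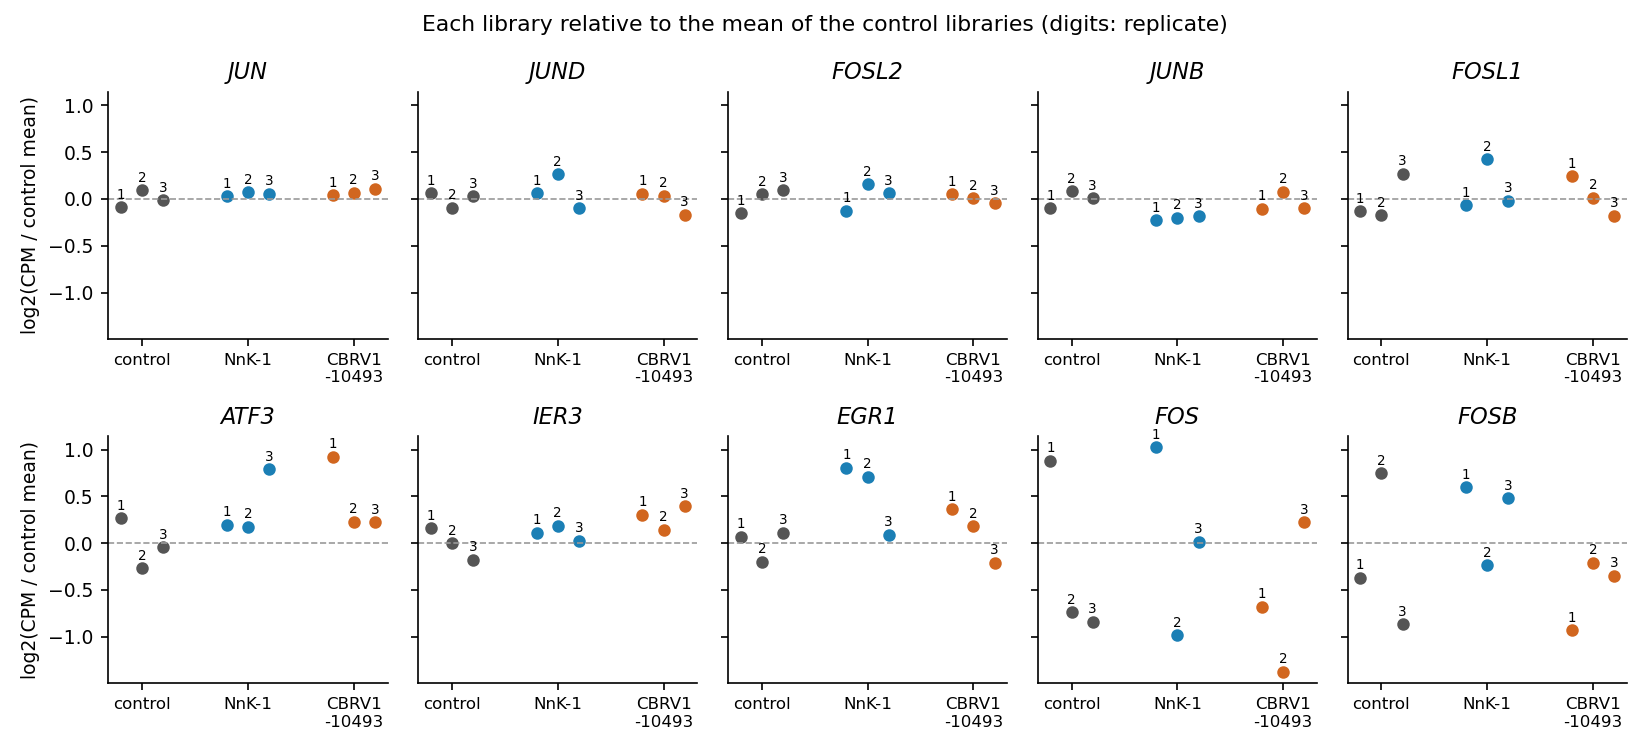
Each library relative to the mean of the control libraries, as log2 of the CPM ratio, 1 panel per gene in the order of control levels; digits give the replicate. JUNB lies below 0 in all NnK-1 libraries, ATF3 is highest in NnK-1 replicate 3 and CBRV1-10493 replicate 1, and FOS runs from -0.98 to 1.02 within the NnK-1 group.

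EGR1, a zinc finger factor induced through serum response factor, had the largest log2 fold change of the 10 with NnK-1. The control libraries stood at 8.69, 7.23 and 8.97 CPM, the NnK-1 libraries at 14.5, 13.6 and 8.82 CPM and the CBRV1-10493 libraries at 10.7, 9.42 and 7.18 CPM. NnK-1 replicates 1 and 2 lay above every other library, whereas NnK-1 replicate 3 lay within the control range, so the groups overlapped. NnK-1 replicate 2 was one of the libraries that stood away. The log2 fold change with NnK-1 was 0.59 (interval 0.07 to 1.11), with an adjusted p = 0.637 by edgeR, which is not a call. It was 0.47 without NnK-1 replicate 1, 0.50 without NnK-1 replicate 2 and 0.78 without NnK-1 replicate 3. With CBRV1-10493 it was 0.15 (-0.38 to 0.67), and 0.0093 without CBRV1-10493 replicate 1, one of the libraries that stood away. CBRV1-10493 against NnK-1 gave -0.45 (-0.97 to 0.07), so the peptides were not shown to differ in EGR1.

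ATF3, a stress-induced factor that pairs with Jun proteins and can act as a repressor, had means above control with both peptides. The control libraries stood at 39.3, 27.2 and 31.7 CPM, the NnK-1 libraries at 37.5, 37.0 and 56.7 CPM and the CBRV1-10493 libraries at 62.2, 38.4 and 38.2 CPM. In each peptide group 1 library was high, and the other 2 lay below control replicate 1, so the groups overlapped. The log2 fold change was 0.44 with NnK-1 (interval 0.02 to 0.86, adjusted p = 0.673 by edgeR) and 0.51 with CBRV1-10493 (0.10 to 0.93, adjusted p = 1.00). Without NnK-1 replicate 3 the first was 0.21, and without CBRV1-10493 replicate 1, one of the libraries that stood away, the second was 0.24. Between the peptides ATF3 differed by 0.07 (-0.34 to 0.49).

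IER3, an early response gene that modulates cell survival, stood at 13.8, 12.4 and 11 CPM in control libraries. It stood at 13.4, 14.1 and 12.6 CPM with NnK-1 and at 15.3, 13.7 and 16.3 CPM with CBRV1-10493. CBRV1-10493 replicates 1 and 3 were the highest of the 9, and replicate 2 lay just under the highest control. The log2 fold change was 0.14 (-0.26 to 0.54) with NnK-1 and 0.30 (-0.10 to 0.70) with CBRV1-10493. The symbol stood on 6 entries of the count files, of which 1 held counts.

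Of 10 pairs of values, 1 per gene, that set CBRV1-10493 against NnK-1 at the same dose and time, none differed past the threshold. The interval of the difference was narrowest for JUN, at 1.00-fold (0.893 to 1.13). For JUND it ran from 0.778-fold to 1.09-fold, for FOSL2 from 0.819-fold to 1.15-fold and for FOSL1 from 0.729-fold to 1.18-fold. For FOS (0.202-fold to 1.85-fold) and FOSB (0.205-fold to 1.63-fold) the data leave a wide range. These intervals do not show that the peptides act alike.

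The makeup of the Jun and Fos counts differed little between group means. Of the Jun-family counts, JUN held 77.7 ± 1.28% in controls, 78.5 ± 1.3% under NnK-1 and 78.9 ± 1.47% under CBRV1-10493 (SD, n = 3). JUND held 14.1 ± 1.40%, 14.5 ± 1.49% and 13.4 ± 1.20% in the same order. FOSL2 held 65.1 ± 2.83%, 63.5 ± 2.40% and 64.9 ± 2.25% of the Fos-family counts, and FOSL1 held 33.3 ± 3.24%, 34.6 ± 2.95% and 33.9 ± 2.64%. FOS and FOSB held from 0.328% to 1.83% and from 0.368% to 1.29%. There were 5.65 to 7.01 Jun-family counts for each Fos-family count in single libraries.

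JUNB took a smaller share of Jun-family counts in NnK-1 libraries, at 6.95%, 6.77% and 7.15%, than in control libraries, at 8.05%, 8.32% and 8.29%. CBRV1-10493 libraries stood at 7.48%, 8.30% and 7.38%. The Wilson 95% interval of a single share, which covers counting error only, reached from 6.65% to 7.68% in NnK-1 replicate 3 and from 7.51% to 8.62% in control replicate 1, the closest pair, so these intervals overlapped. The NnK-1 shares lay below all 6 others, with an exact two-sided permutation p = 0.1 against either group, which is the smallest that 3 against 3 libraries can give, and an adjusted p = 0.817 over 21 such tests.

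**Figure D4:**
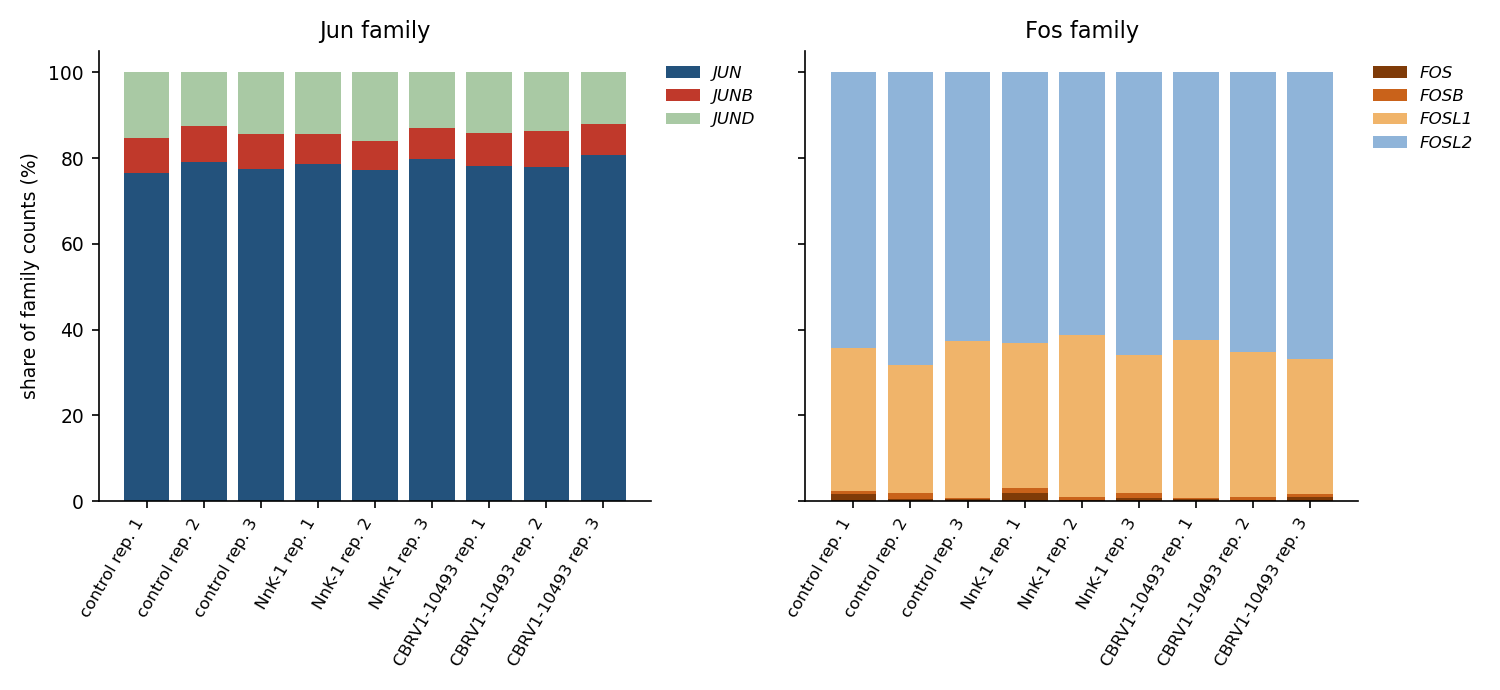
Share of each gene in the summed counts of its family, in percent, for the 9 libraries; each bar adds up to the whole family. JUN holds more than 76% of Jun-family counts in every library, and FOSL2 more than 61% of Fos-family counts.

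No pair of members was called as varying together across libraries, which with 9 libraries does not show that they vary separately. Of 28 pairs among the 8 members with at least 5 CPM, 20 had a Pearson r above 0, the median r was 0.12 and 0 passed an exact permutation test after adjustment (3 had p below 0.05 before it). The highest r joined JUND and EGR1, at 0.81 with a Spearman rho of 0.83 (n = 9 libraries, exact permutation p = 0.00527 and p = 0.00827, adjusted p = 0.107 and 0.231). It was 0.82 after subtraction of group means and 0.64 without the 2 libraries farthest from the JUND median. FOSL1 and JUND gave an r of 0.80 and a rho of 0.65 (exact permutation p = 0.00766 and 0.0666, adjusted p = 0.107 and 0.466), and r = 0.58 without 2 libraries, NnK-1 replicate 2 among them. FOSL1 and FOSL2 gave an r of 0.78 (exact permutation p = 0.0127, adjusted p = 0.119), and r = 0.52 without the same 2 libraries.

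The gene most alike in its log2 CPM over the 9 libraries, out of 9101 searched at 10 CPM or more, was FASN for FOSL2 (r = 0.98), WARS2 for JUND (0.96), PTCD1 for FOSL1 (0.94) and KIAA0355 for ATF3 (0.93). It was TMEM141 for JUNB (0.93), SF3A1 for IER3 (0.92) and PPARA for JUN (0.92). Each is the highest of many values and describes these libraries only.

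The spread of the members with at least 5 CPM lay on both sides of the median of genes at that level. The biological coefficient of variation was 0.082 for JUN, 0.099 for JUNB, 0.10 for FOSL2 and JUND, 0.14 for FOSL1, 0.16 for IER3, 0.17 for ATF3 and 0.20 for EGR1, where the median of genes at 5 CPM or more was 0.13. FOS had 0.51 and FOSB 0.44, but their means of 1.03 and 0.939 CPM lay below the 5 CPM of that comparison.

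Genes around the members were read from 6 lists of dimer partners, regulators, kinases, inhibitors and targets. In each list and comparison 0 genes passed, by edgeR and by DESeq2. With NnK-1, unadjusted p-values below 0.05 were found for 4 of 24 tested partners and related leucine zipper factors, 0 of 33 other immediate-early genes, 2 of 11 regulators of serum response factor and CREB type, 1 of 29 kinases of the MAP kinase cascade, 1 of 18 feedback inhibitors and 5 of 19 AP-1 targets, where 7.32% of all genes had them. With CBRV1-10493 the numbers were 1, 0, 0, 1, 1 and 0 of the same lists, where 2.89% of all genes had them. Between the peptides they were 1, 0, 0, 1, 0 and 5, where 4.31% of all genes had them. The medians of the 6 lists lay between -0.07 and 0.06 with NnK-1, between -0.03 and 0.03 with CBRV1-10493 and between -0.03 and 0.10 between the peptides.

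Upstream of the members, SRF, which binds the CArG box together with ternary complex factors, had 207 ± 20.7 CPM under NnK-1 and 168 ± 14.3 CPM in controls (a log2 difference of 0.33, interval 0.09 to 0.56, adjusted p = 0.578 by edgeR). The NnK-1 and control libraries of SRF did not overlap, as for 5.08% of all genes in this direction. The log2 difference of SRF was 0.23 without NnK-1 replicate 2, one of the libraries that stood away. CREBBP, a coactivator of CREB and AP-1, stood at 35.6 ± 5.85 against 45.1 ± 0.836 CPM (-0.32). MAP2K7, the kinase that activates JNK, stood at 31.2 ± 2.77 against 41.8 ± 1.93 CPM (-0.40). With CBRV1-10493, SRF stood at 0.14 (-0.09 to 0.38), and RPS6KA4, a nuclear kinase that acts on CREB and histone H3, at -0.32 (-0.63 to -0.02, adjusted p = 1.00 by edgeR). MAP3K7, the kinase TAK1, stood at 0.24 with NnK-1 and differed by -0.27 between CBRV1-10493 and NnK-1, where MAP3K1 differed by 0.31, SRF by -0.18 and CREBBP by 0.27. With CBRV1-10493 the ternary complex factor ELK3 stood at 0.11 and RPS6KA1 at 0.40, the latter at 0.019 without CBRV1-10493 replicate 1.

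Among partners, CREM, a CREB-like factor with repressor forms, had 23.2 ± 5.17 CPM under NnK-1 and 33.0 ± 2.49 CPM in controls (log2 fold change -0.48) and CREB3 had 100.3 ± 2.22 and 83.8 ± 4.44 CPM (0.29). MAFF, a small Maf protein, had 15.2 ± 3.48 CPM under CBRV1-10493 and 10.4 ± 0.687 CPM in controls (0.56), and NFE2L1 differed by 0.18. Between the peptides MAFF differed by 0.52 and ATF4, the integrated stress factor, by 0.22. Of the inhibitors, SPRED1, which restrains Ras signalling, had 30.4 ± 3.38 CPM in controls, 21.4 ± 1.49 under NnK-1 and 23.3 ± 3.45 under CBRV1-10493 (-0.48 and -0.37). NAB1, a corepressor of EGR1, stood at -0.26 with NnK-1 (-0.59 to 0.07). DUSP5, an ERK phosphatase, stood at -0.44 with CBRV1-10493. Between the peptides DUSP6, another ERK phosphatase, differed by -0.44 and SPRED2 by 0.42, the latter at -0.061 without the 2 libraries that stood away. None of these passed.

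Other immediate-early genes ranged widely in level. CTGF, a matricellular gene, stood between 670 and 1133 CPM in single libraries, while PTGS2, EGR4 and AREG had no read in any library, which allows up to 0.0271 CPM over all 9 libraries (3 counts). EGR2, the relative of EGR1, ranged from 0.662 to 3.38 CPM. The smallest p-values belonged to PPP1R15A, a stress phosphatase subunit, with 63.4 ± 9.23 CPM under NnK-1 and 53.3 ± 4.30 CPM in controls (log2 fold change 0.28, -0.0040 to 0.56), to IER5L with NnK-1 (-0.21), and to KLF6 and PPP1R15A with CBRV1-10493 (0.16 and 0.17). Between the peptides they belonged to ZFP36L2, which promotes mRNA decay, and HBEGF, a growth factor (-0.22 and 0.34). PPP1R15A with NnK-1 stood at 0.15 without NnK-1 replicate 2, one of the libraries that stood away.

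Of the AP-1 targets, TGFB1, a cytokine whose promoter AP-1 is known to bind, had 11.2 ± 1.07 CPM under NnK-1 and 20.4 ± 3.12 CPM in controls (a log2 difference of -0.83, interval -1.25 to -0.41, adjusted p = 0.499 by edgeR). It passed in 1 alternative, without the filter on low counts (adjusted p = 0.0358 by edgeR). Between the peptides TGFB1 stood at 0.67 (0.24 to 1.09, adjusted p = 0.994 by edgeR). ODC1, an enzyme of polyamine synthesis, had 167 ± 11.6 CPM under NnK-1 and 133 ± 12.8 CPM in controls (0.35). PLAUR, the urokinase receptor, differed by 0.35 between CBRV1-10493 and NnK-1. With CBRV1-10493, ITGA2, an integrin subunit, stood at 0.38 and CCND1, cyclin D1, at -0.13.

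**Figure D5:**
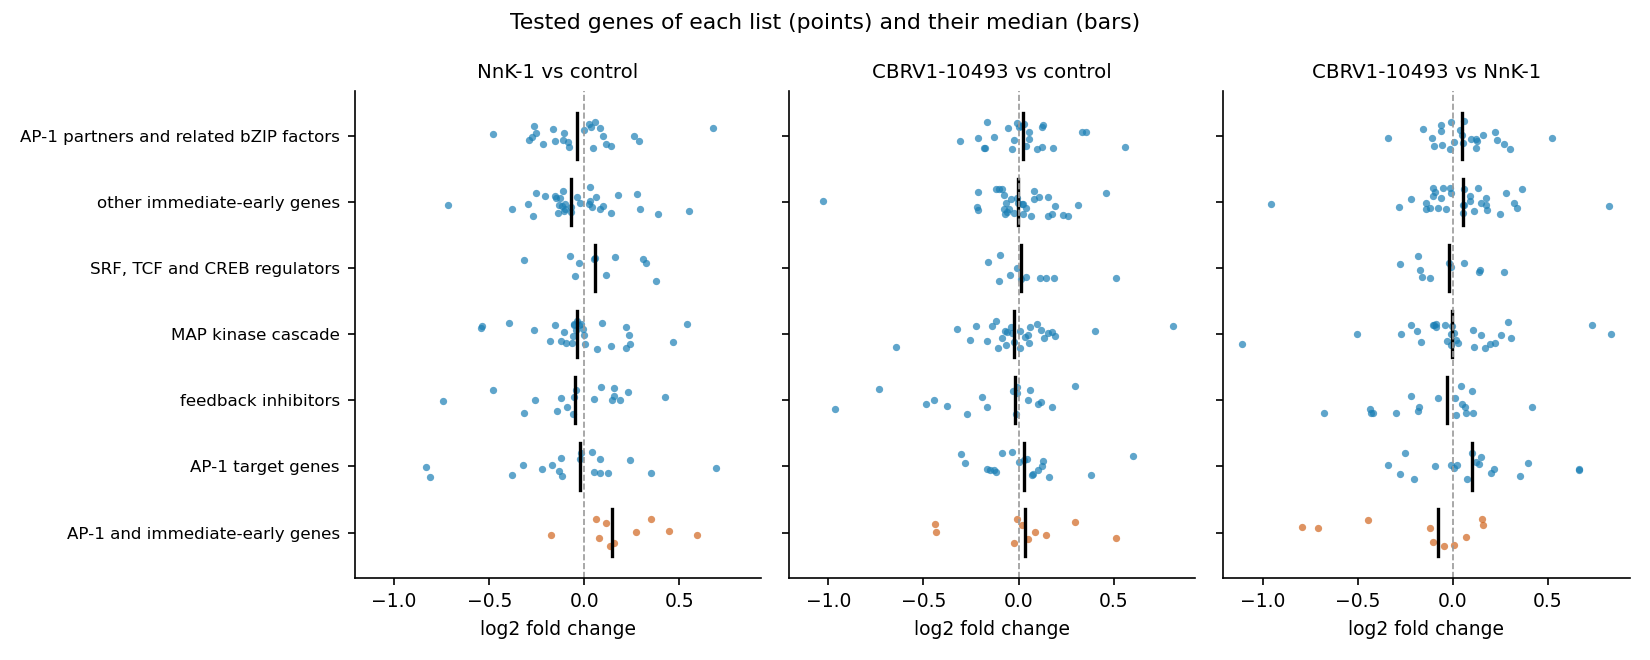
Log2 fold change of each tested gene (points) and the median (bars) for the 6 lists and for the 10 members (orange) in the 3 comparisons. The medians of the 6 lists lie between -0.07 and 0.10.

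Marker sums of some other cell types did not overlap between the NnK-1 and control libraries, where 13% of all genes did not. Each of these sums was mostly the level of a single gene. The summed level of 5 neuronal markers was 217 to 248 CPM in control libraries, 256 to 334 with NnK-1 and 209 to 273 with CBRV1-10493. Most of it was TUBB3, a tubulin, while RBFOX3, SNAP25 and STMN2 averaged below 1 CPM. The summed level of 5 immune markers was 3.90 to 5.11 CPM in control libraries, 1.61 to 3.67 with NnK-1 and 3.89 to 5.49 with CBRV1-10493. Nearly all of it was CD68, with CD3E at 0. That of 4 epithelial markers, most of it KRT18, was 9.49 to 10.01 CPM in control libraries, 7.23 to 9.40 with NnK-1 and 9.82 to 10.2 with CBRV1-10493. Sums of astrocyte and glioma, oligodendrocyte and endothelial markers overlapped between the NnK-1 and control libraries. Their part in the values of EGR1, JUNB and the lists was not tested.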

How the data were processed

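Each deposited file gives the unnormalized read counts of 1 library by gene symbol. Bowtie2, bedtools and the build hg19 are named in the submitters' processing notes. Versions, annotation and strand setting are not given in the sources used here. FOSB, FOSL2, JUNB and IER3 overlap genes on the opposite strand in GENCODE (ERCC1, FLJ31356, HOOK2 and IER3-AS1), and without strand their reads cannot be told apart. FOSL2 also overlaps a sense-intronic gene on its own strand, whose reads strand alone would not separate. Entries of 1 symbol were summed (25737 entries, 24462 symbols).

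Genes were kept by filterByExpr (minimum count 10, minimum total 15). edgeR 4.0.16 in R 4.3.3 was fitted with TMM scaling to all 9 libraries, a coefficient per group, two-sided. It was also run on simulated counts in which no library was made to stand apart, so that run does not bear on the absence of calls here. Log2 CPM used a prior count of 2. DESeq2 was 1.42.0. Libraries differed by more than sampling noise in every pair. The labels call replicates biological without naming separate cultures. The p-values therefore rest on sample-to-sample spread that could be technical.

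Members and lists were chosen with earlier results of these data known. Named from lists were, per comparison, up to 2 genes with the smallest p at 5 CPM or more, and for likeness the gene with the highest r for each member at 10 CPM or more. CTGF, PTGS2, EGR4, AREG and EGR2 were named for their level after their values were seen. Alternatives changed scaling, filter, libraries, tool, replicate block and duplicate entries.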

Additional observations from a re-analysis of the deposited data

How the results depend on the processing

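No member passed under any alternative, and the smallest adjusted p of a member was 0.263 (ATF3 with NnK-1, edgeR without a filter on low counts). Of 30 values, 1 per member and comparison, 16 kept their sign in all alternatives run and 14 turned in at least 1. Those that kept it included EGR1, ATF3, JUNB and FOSB with NnK-1, and EGR1 with CBRV1-10493 (0.0093 at its lowest). The alternatives reuse the same 9 libraries, so a kept sign is not independent evidence. The share over all genes was not computed. Over all genes, without a filter on low counts, edgeR called 74 for NnK-1, 6 for CBRV1-10493 and 1 between the peptides. DESeq2 called 2 for NnK-1. In the list of AP-1 targets 1 gene was then called with NnK-1, TGFB1 at -0.83, without the filter. The cause was not tested.

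Without both libraries that stood away from the rest, an alternative chosen after seeing the data, FOSL1 stood at -0.033 with NnK-1 and -0.072 with CBRV1-10493, FOSL2 at -0.017 and -0.013, JUND at -0.0036 with NnK-1 and JUNB at 0.0012 with CBRV1-10493. Between the peptides FOSL2 then stood at 0.0036, ATF3 at -0.30 and SPRED2 at -0.061.

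With each library left out in turn, log2 fold changes with NnK-1 ranged from -0.35 to 1.04 for FOS, -0.033 to 0.32 for FOSL1, -0.017 to 0.15 for FOSL2 and -0.0042 to 0.20 for JUND. With CBRV1-10493 they ranged from -0.95 to 0.33 for FOS, -0.73 to 0.15 for FOSB, -0.072 to 0.21 for FOSL1, -0.058 to 0.072 for FOSL2, -0.087 to 0.015 for JUNB, -0.056 to 0.060 for JUND and -0.013 to 0.22 for ELK3. Between the peptides they ranged from -0.23 to 0.084 for FOSL1, -0.13 to 0.034 for FOSL2, -0.016 to 0.032 for JUN and -0.21 to 0.30 for ATF3. FOS and FOSB were not fitted at 5 CPM or more.

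With the replicate number as a block 0 genes were called in each comparison, and EGR1 with NnK-1 stood at 0.56. Correlations of deviations from the group means ran from -0.06 to 0.13 for same-numbered libraries and from -0.09 to 0.10 for libraries of other numbers. Such weak correlations cannot show whether the numbers pair the samples, because a small shared effect could go unseen.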
